A study of Mus musculus with 12 samples.

Results

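The Ifi200 family is a cluster of interferon-inducible genes on mouse chromosome 1. The members examined were 9 genes chosen by name, *Ifi203*, *Ifi204*, *Ifi206*, *Ifi207*, *Ifi208*, *Ifi209*, *Ifi213*, *Mndal* and *Aim2*. Of these, 8 were found among the 25860 genes listed in the RNA-seq data and were tested there, and the RNA of *Ifi206* was not analysed here. Most of the encoded proteins join a pyrin domain, which binds other proteins, to HIN domains, which bind DNA, and the family is therefore also called PYHIN. AIM2 binds DNA in the cytosol and assembles an inflammasome through the adaptor ASC, whereas several other members act in the nucleus on transcription and on interferon responses.

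RNA-seq and ATAC-seq were performed on progenitor-like CD8+ T cells (T_prog_) from the pancreatic lymph nodes of female NOD.NY8.3 mice, whose transgenic T cell receptor recognizes the islet antigen IGRP. The comparison asked how loss of the histone demethylase UTX in T cells altered RNA and chromatin accessibility in these cells, with 3 libraries per genotype in each assay. *NY8.3 UTX TCD* mice carried floxed *Kdm6a*, the gene of UTX, with *Lck-Cre*, and *NY8.3 WT* mice were the UTX-sufficient controls. The floxed and *Cre* alleles were brought from B6 mice into NOD by backcrossing, and the study found its diabetes-associated loci to be NOD-derived. Whether B6 sequence remained at the Ifi200 locus was not examined here. In the study's NOD line without the transgenic receptor, the WT controls were Cre-negative littermates. The sort gate is described as Ly108+CXCR6- with the samples and as Ly108+CD39- in the study's methods, and the age of these mice was not stated. Because *Lck-Cre* is active from the thymus onward, an effect within T_prog_ cannot be told apart from one that arose earlier. Reads assigned to genes numbered 146456724, 144503203 and 193568919 in WT replicates 1 to 3, and 61512402, 175462433 and 187275082 in UTX TCD replicates 1 to 3. The normalized read count of *Kdm6a* was 28365, 28949 and 29172 in WT and 24158, 24792 and 24579 in UTX TCD. All 3 UTX TCD libraries were thus below all 3 WT libraries (log2 fold change -0.23, SE 0.04, limma adjusted p 0.00114), and totals over the whole gene leave the deleted exons unresolved.

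Of the 8 members tested, 5 were called higher in UTX TCD T_prog_ by limma at an adjusted p under 0.05 and a log2 fold change over 0.5, *Ifi204*, *Mndal*, *Ifi209*, *Ifi208* and *Ifi213*. Among all 14459 genes tested, 1518 (10.5%) were called higher and 1020 (7.05%) lower, or 17.6% in either direction. No member was called lower: limma counted 0 members, 0 had a lower level at an unadjusted p under 0.05, and edgeR and DESeq2 each counted 0. The log2 fold change was above 0 for all 8 members, and its median was 0.61 over the members against -0.00018 over all genes tested. In 7 of 8 members, all but *Ifi207*, the 3 UTX TCD values exceeded the 3 WT values without overlap, as they did for 25.8% of all genes tested, and the reverse order held for 0 members and 26.1% of genes. An adjusted p under 0.05 without a limit on the fold change was reached by 7 of 8 members, against 20.2% of all genes tested in the same direction. The 2 of these that were not called, *Ifi203* and *Aim2*, had log2 fold changes under the limit. Summed over the 8 members, normalized counts were 150767, 151825 and 143623 in WT and 227242, 213163 and 210118 in UTX TCD. With 3 libraries against 3, an exact permutation test of any member alone cannot go below p = 0.10, so adjusted p-values come from fits over all genes, limma's unless another tool is named.

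**Figure D1:**
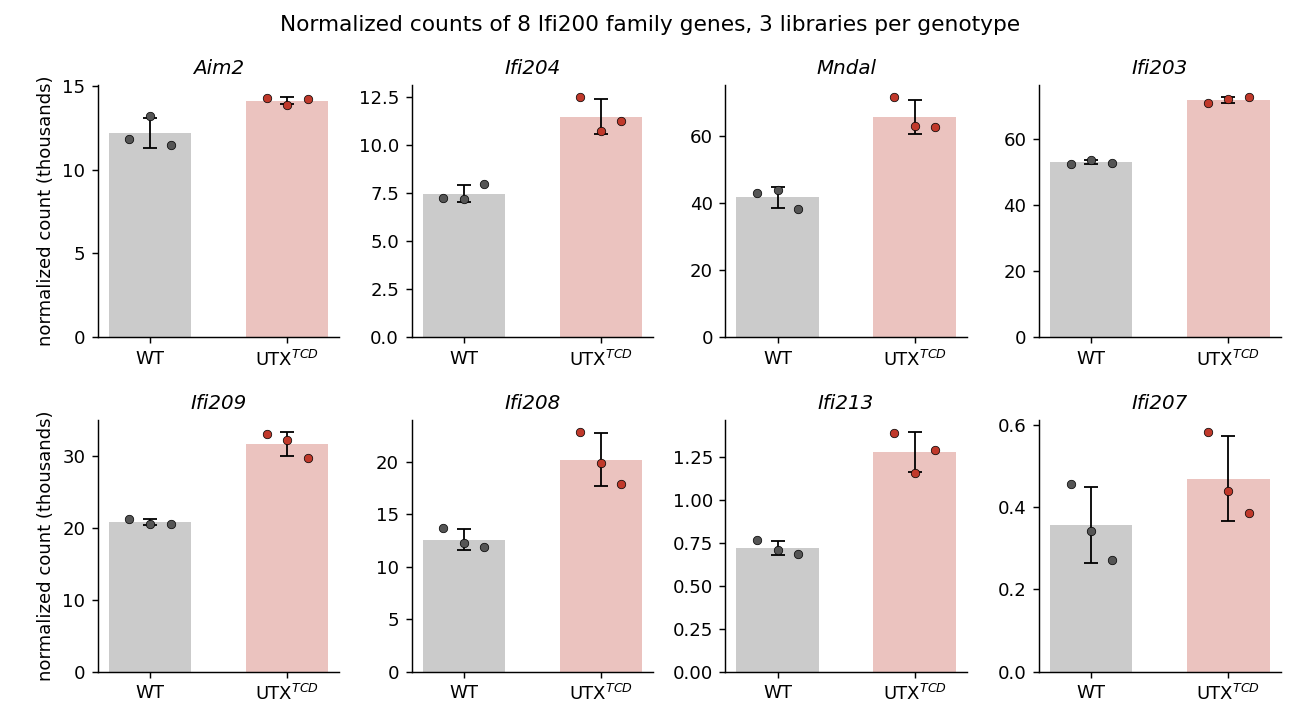
Normalized read counts (linear axes from 0 in the units labelled, a panel for each member) in WT (gray) and UTX TCD (red) T_prog_, with points for the 3 libraries per genotype, bars for means and error bars for SD. UTX TCD points lie above all WT points for each member except *Ifi207*, and each panel has its own scale, from a WT mean of 357 for *Ifi207* to 52996 for *Ifi203*.

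*Aim2* and *Ifi204* encode members described as sensors of DNA. *Aim2*, the inflammasome receptor, was counted at 11862, 13235 and 11507 in WT and at 14290, 13893 and 14245 in UTX TCD. The UTX TCD libraries were tightly grouped and all above the WT libraries, but the gap from the highest WT library was small. Its mean rose from 12202 ± 913 (SD, n = 3 libraries) to 14143 ± 217, a log2 fold change of 0.22 (SE 0.06, limma adjusted p 0.0137) that was not called. That adjusted p became 0.0562 without WT replicate 1 and 0.0539 in limma without a trend, within a range of 0.00162 to 0.0562 over the alternatives tried, edgeR and DESeq2 included. *Ifi204*, whose product has been placed upstream of STING, was counted at 7259, 7196 and 7992 in WT and at 12529, 10745 and 11249 in UTX TCD. Here the groups were clearly separated, with every UTX TCD library well above the highest WT library. The mean of *Ifi204* went from 7482 ± 442 to 11508 ± 920 (SD, n = 3), and it was called higher with a log2 fold change of 0.62 (SE 0.07, limma adjusted p 0.000122). Whether the changes of *Ifi204* and *Aim2* differed from each other was not tested.

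*Mndal* and *Ifi203*, which encode nuclear proteins, were the members with the highest counts. *Mndal* was counted at 42958, 43761 and 38014 in WT and at 71526, 62819 and 62580 in UTX TCD. Its libraries fell into separate ranges by genotype, and UTX TCD replicate 1 was the highest of the 6. *Mndal* rose from 41578 ± 3112 to 65642 ± 5097 (SD, n = 3), with a log2 fold change of 0.66 (SE 0.07, limma adjusted p 0.000118). *Ifi203* was counted at 52460, 53725 and 52803 in WT and at 71009, 72021 and 72726 in UTX TCD. These libraries varied little within a genotype, so that a smaller difference stood well outside the spread. Its mean rose from 52996 ± 655 to 71919 ± 863 (SD, n = 3), and the log2 fold change of 0.44 (SE 0.04, limma adjusted p 3.68e-05) was under the limit for a call. Scaled to the same sum in every library, *Ifi203* reached 0.50 and was called.

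*Ifi209*, *Ifi208* and *Ifi213* lie next to one another in the cluster, and their products are among the less well characterized PYHIN proteins. *Ifi209* was counted at 21303, 20612 and 20513 in WT and at 33039, 32237 and 29731 in UTX TCD. *Ifi208* was counted at 13707, 12246 and 11841 in WT and at 22879, 19852 and 17911 in UTX TCD. *Ifi213*, at a far lower level, was counted at 763, 707 and 681 in WT and at 1388, 1157 and 1291 in UTX TCD. For all 3 genes the UTX TCD libraries were high and the WT libraries low without overlap. The mean of *Ifi209* rose from 20809 ± 430 to 31669 ± 1726 (SD, n = 3), with a log2 fold change of 0.60 (SE 0.05, limma adjusted p 2.34e-05). *Ifi208* rose from 12598 ± 981 to 20214 ± 2503 (SD, n = 3), with a log2 fold change of 0.68 (SE 0.09, limma adjusted p 0.000368). *Ifi213* had the largest log2 fold change of the 8 members, 0.83 (SE 0.09, limma adjusted p 0.000166), from 717 ± 41.8 to 1279 ± 116 (SD, n = 3).

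*Ifi207*, another PYHIN gene of little studied function, was counted at 456, 343 and 271 in WT and at 583, 439 and 385 in UTX TCD. WT replicate 1 was above both UTX TCD replicates 2 and 3, so the groups overlapped. Its mean of 357 ± 92.9 in WT and 469 ± 102 in UTX TCD (SD, n = 3) gave a log2 fold change of 0.40 (SE 0.21, limma adjusted p 0.16), which was not called. These values rested on 460, 347 and 356 reads in WT and on 259, 548 and 522 reads in UTX TCD, and the log2 fold change ranged from 0.22 without WT replicate 3 to 0.60 without WT replicate 1. UTX TCD replicate 1, the shallowest library, gave the highest value of its group for 7 of the 8 members. Without that library the same 5 members were called, with log2 fold changes from 0.56 for *Ifi204* to 0.77 for *Ifi213*.

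To compare members with one another, normalized counts were divided by the length of exons in curated RefSeq transcripts. In WT T_prog_ the highest level per kilobase was that of *Mndal* (21476 ± 1607, SD, n = 3), followed by *Ifi203* (10833 ± 134), *Ifi209* (5951 ± 123) and *Aim2* (4802 ± 359). *Ifi204* (3259 ± 193) and *Ifi208* (3202 ± 249) came next and overlapped. *Ifi207* (102 ± 26.7) and *Ifi213* (91.6 ± 5.34) were far lower and also overlapped. In UTX TCD T_prog_ the first 4 genes were the same and in the same order, at 33906 ± 2633, 14701 ± 176, 9056 ± 493 and 5566 ± 85.5 (SD, n = 3). *Ifi208* (5137 ± 636) then overlapped with both *Aim2* and *Ifi204* (5012 ± 401), and *Ifi213* (163 ± 14.8) overlapped with *Ifi207* (135 ± 29.3). *Aim2* made up 9.65% ± 0.487 of the summed level per kilobase in WT and 7.57% ± 0.350 in UTX TCD (SD, n = 3), a difference that was not tested. The level depends on which transcripts define the length. With predicted transcripts included, an alternative chosen after seeing the data, the order in WT was *Mndal* (8428), *Ifi203* (6966), *Ifi209* (5951), *Ifi204* (3059), *Ifi208* (2288) and *Aim2* (1150), ahead of *Ifi207* and *Ifi213*. *Aim2* thus moved from rank 4 to rank 6, and its share of the sum was 4.11% in WT and 3.20% in UTX TCD.

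The members are similar in sequence, and how reads that fit several genes were counted was not stated. Windows of 50 bases, the length of each read of a pair, were taken from the curated transcripts of each member and searched in the other PYHIN genes. Exact copies elsewhere were found for 29.9% of windows of *Ifi204*, 28.4% of *Ifi208*, 27.3% of *Mndal* and 20.2% of *Ifi203*. The share was lower for *Ifi213* (13.6%), *Ifi209* (12.4%) and *Ifi207* (4.44%), and *Aim2* shared 0% of its windows. The most frequent partner was *Ifi211* for *Ifi204* and *Mndal*, *Ifi213* for *Ifi208*, *Ifi208* for *Ifi213*, and *Ifi203-ps* for *Ifi203*. Counts of the members other than *Aim2* are therefore uncertain as to which copy gave the reads, although the other read of a pair can place some of them. In the GENCODE annotation *Mndal* and *Ifi203* also overlap on the same strand, by 37 exon bases. The reads were aligned to the mm10 genome, which comes from C57BL/6J mice, and gene content at this locus differs between mouse strains, so reads from NOD copies absent from mm10 cannot be told apart from reads of the listed members.

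Chromatin accessibility was examined in the ATAC-seq peaks listed as differing between the genotypes, for which the authors' mean log2 concentration per genotype was used, without values per library. Among 23932 listed peaks, 16466 (68.8%) were higher in UTX TCD. Of 9 listed peaks annotated to a member, 7 were higher and 2 were lower in UTX TCD. Their median difference was 0.492, close to the 0.493 of all listed peaks. The peak over the *Ifi209* promoter, at chr1:173630601-173631001, rose from 8.23 to 8.72. The peak over the first exon of *Ifi213*, at chr1:173598962-173599362, rose from 6.96 to 7.78, and that in the first exon of *Ifi208*, at chr1:173673721-173674121, rose from 9.06 to 9.53. Accessibility and RNA thus differed in the same direction at the starts of these 3 genes, without a test that links them. The differences for *Ifi209* (0.49) and *Ifi208* (0.47) were close to the median of all listed peaks, and that for *Ifi213* (0.83) was larger. Sequence windows were repeated in the locus for 36.6% of this *Ifi209* peak, 36.4% of the *Ifi213* peak and 9.09% of this *Ifi208* peak. The authors kept only uniquely mapped ATAC-seq reads, and the effect of repeated sequence on the peaks was not tested. Within introns, peaks of *Ifi209* (7.85 to 8.46), *Ifi208* (7.41 to 7.89) and *Ifi203* (5.48 to 6.16) were also higher, and a peak annotated as intergenic and assigned to *Ifi209*, at chr1:173650592-173650992, showed the largest difference of the 9 (4.12 to 5.47). The 2 lower peaks were both intergenic in the authors' annotation. One lay upstream of the annotated start of *Aim2* (position -1585), within the RefSeq span of *Aim2* that includes predicted transcripts, at chr1:173418819-173419219, and went from 7.51 to 6.83, against the direction of the *Aim2* RNA. Within the same RefSeq span of *Aim2*, listed peaks annotated to *Ackr1* (7.52 to 8.23) and *Cadm3* (6.47 to 7.09) were higher in UTX TCD. The other lower peak was annotated to *Ifi203*, at chr1:173949159-173949559, and fell by 0.71 to a mean of 6.29. No listed peak was annotated to *Mndal*, *Ifi204*, *Ifi207* or *Ifi206*, and since the list held only peaks that differed, peaks of these genes outside the list were not examined. For *Ifi206*, a listed peak at chr1:173491110-173491510 (7.58 to 8.04) overlapped its RefSeq promoter, although it was annotated to *Ifi214* at a distance of 44647 bases. Of the sequence windows in that peak, 47.4% were repeated in the locus.

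**Figure D2:**
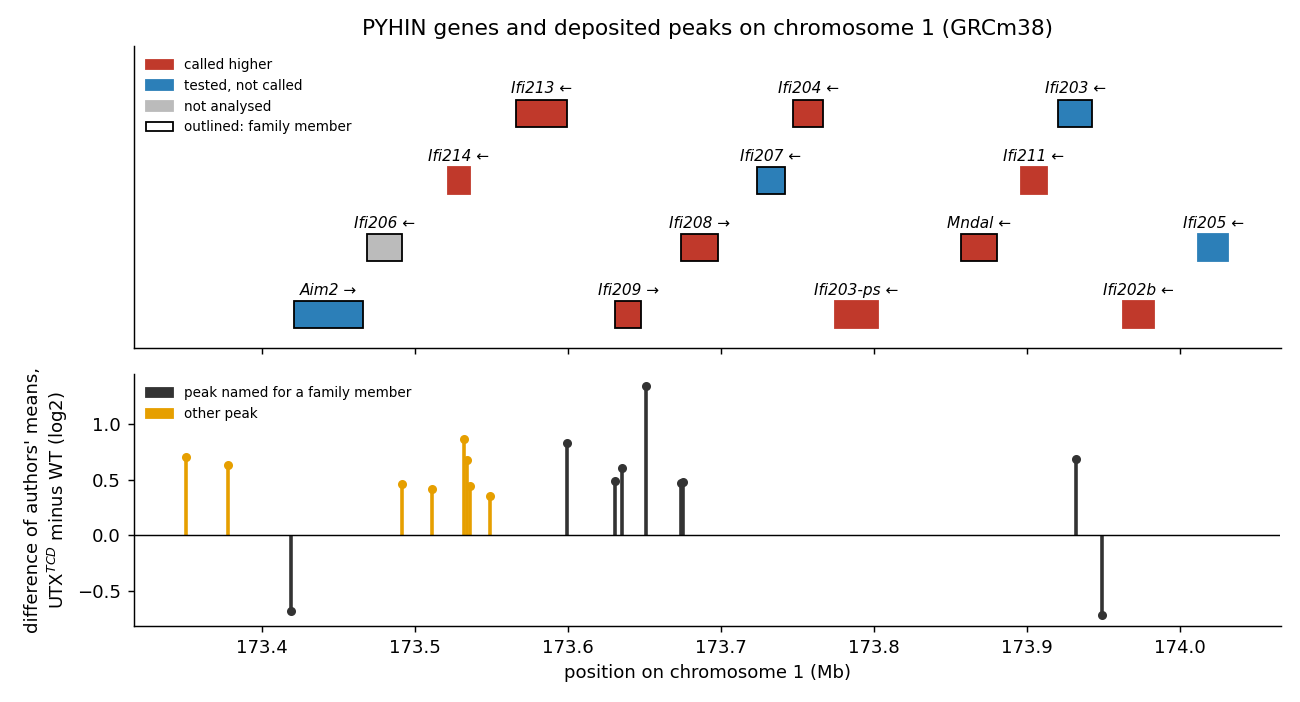
Map of PYHIN genes by position on chromosome 1 (GRCm38, in megabases), with arrows for strand, colors for the RNA result and outlines for members, above the listed ATAC-seq peaks between the outer ends of the members or annotated to a member, by the difference of the authors' mean log2 concentrations (UTX TCD minus WT). Of the 9 peaks annotated to members (black) 7 lie above 0, and the lower peaks are those near *Aim2* (-0.67) and beyond *Ifi203* (-0.71).

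Promoters of the members were searched for the core of the interferon-stimulated response element, GAAANNGAAA, and of the gamma-activated sequence, TTCNNNGAA, on both strands of the 250 bases upstream of each annotated transcript start (GRCm38.p6). The response element core was present in 7 of 10 member promoters, against 2.98% of all 32851 mouse promoters. These belonged to 6 of the 8 members with an annotated promoter, *Ifi206*, *Ifi213*, *Ifi208*, *Ifi207*, *Mndal* and *Ifi203*. *Ifi204* had no promoter entry and was not searched, and *Aim2* and *Ifi209* had no match. Each of the 6 members had a match that read GAAATCGAAA, which occurred in 13 of all 32851 promoters, 7 of them PYHIN promoters (the 6 members and *Ifi214*). That exact string was picked after the matches were seen. A further annotated promoter of *Mndal*, at chr1:173879959-173880208, held GAAAGAGAAA on the other strand, 54 bases before its start, a string found in 147 of all promoters, and a further promoter of *Ifi203*, at chr1:173942673-173942922, had no match. GAAATCGAAA began 73 bases before the start of *Ifi213*, 58 before *Ifi208*, 41 before *Ifi207*, 40 before *Ifi206*, 36 before *Mndal* and 35 before *Ifi203*. *Ifi209* held TAAATCGAAA 79 bases before its start, which differs by G1T, counted from 1 at the 5′ base of the string. The gamma-activated core was found in 0 of the member promoters and in 7.02% of all promoters. The promoters of *Ifi213* and *Ifi208* had an identical run of 135 bases, and those of *Mndal* and *Ifi203* a run of 96 bases that contained the match. These are matches of sequence in the C57BL/6J reference, and binding was not measured. The promoters of *Mndal* and *Ifi203*, which had the highest counts, and of *Ifi213*, *Ifi209* and *Ifi208*, which were called higher and had a listed peak over the promoter or the first exon, are shown for comparison, 5′ to 3′ on the strand of the gene, with the match in capitals (for *Ifi209*, the string with G1T). They span chr1:173599273-173599522 (*Ifi213*, minus strand), chr1:173630609-173630858 (*Ifi209*, plus strand), chr1:173673415-173673664 (*Ifi208*, plus strand), chr1:173880188-173880437 (*Mndal*, minus strand) and chr1:173942493-173942742 (*Ifi203*, minus strand).
Ifi213 promoter: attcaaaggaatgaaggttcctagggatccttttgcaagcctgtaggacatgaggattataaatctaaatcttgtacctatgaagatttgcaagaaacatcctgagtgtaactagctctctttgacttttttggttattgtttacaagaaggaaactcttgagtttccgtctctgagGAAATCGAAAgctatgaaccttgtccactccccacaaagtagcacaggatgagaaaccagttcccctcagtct
Ifi209 promoter: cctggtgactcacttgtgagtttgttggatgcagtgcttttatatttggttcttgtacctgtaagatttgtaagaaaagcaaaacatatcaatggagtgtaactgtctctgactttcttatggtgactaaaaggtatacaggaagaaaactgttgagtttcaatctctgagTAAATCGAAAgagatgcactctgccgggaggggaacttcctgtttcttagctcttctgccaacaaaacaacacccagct
Ifi208 promoter: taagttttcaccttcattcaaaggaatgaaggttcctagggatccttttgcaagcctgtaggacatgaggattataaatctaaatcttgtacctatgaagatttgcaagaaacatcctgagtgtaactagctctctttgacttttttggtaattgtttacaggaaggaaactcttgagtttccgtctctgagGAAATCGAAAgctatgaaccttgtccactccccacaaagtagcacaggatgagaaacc
Mndal promoter: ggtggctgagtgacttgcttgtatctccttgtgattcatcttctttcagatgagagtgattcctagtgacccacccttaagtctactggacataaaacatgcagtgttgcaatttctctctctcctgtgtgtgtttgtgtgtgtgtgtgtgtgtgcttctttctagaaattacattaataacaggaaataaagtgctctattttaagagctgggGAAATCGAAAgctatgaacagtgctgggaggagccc
Ifi203 promoter: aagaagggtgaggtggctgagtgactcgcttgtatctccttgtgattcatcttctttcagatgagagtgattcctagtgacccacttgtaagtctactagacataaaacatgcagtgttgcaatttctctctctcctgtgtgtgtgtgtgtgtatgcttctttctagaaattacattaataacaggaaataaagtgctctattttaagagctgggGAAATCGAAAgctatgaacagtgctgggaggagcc

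The members share the cluster with further PYHIN genes, of which 5 were tested. Of these, 4 were called higher in UTX TCD, against 10.5% of all genes tested. They were *Ifi202b* (log2 fold change 1.90), *Ifi211* (0.80), the pseudogene *Ifi203-ps* (0.58) and *Ifi214* (0.56). The calls of the last 2 depended on single libraries, since without UTX TCD replicate 1 *Ifi203-ps* was at 0.498 and *Ifi214* at 0.46, both under the limit, as was *Ifi214* without WT replicate 3 (0.47). With a limit of 1.5-fold, 2 of the 5 genes were called, *Ifi202b* and *Ifi211*. *Ifi202b*, whose product has HIN domains without a pyrin domain, was low, at 22.8, 15.8 and 13.0 normalized counts in WT and 65.2, 59.3 and 71.5 in UTX TCD, yet its groups were well apart. *Ifi205* had a log2 fold change of 1.13 (SE 0.42, limma adjusted p 0.0593) with overlapping groups and was not called, although it was without WT replicate 3 (limma adjusted p 0.00555) or UTX TCD replicate 1 (0.0231) and by DESeq2 (0.0225), within a range of 0.00555 to 0.184 over the alternatives tried, edgeR and DESeq2 included. Of the windows of *Ifi211* and *Ifi205*, 70.7% and 49.6% had exact copies in other PYHIN genes. Their reads and those of *Ifi204* and *Mndal* therefore cannot be fully told apart. *Ifi214* shared 34.2% of its windows, with *Ifi209* the most frequent partner, and *Ifi203-ps* shared 26.6%, most often with *Ifi203*. Within 500 kb of the outer ends of the members, which span 593 kb, 13 of 47 other RefSeq genes were listed and 5 had enough reads to be tested, all of them PYHIN genes. Whether the change was limited to PYHIN genes at this locus could therefore not be tested.

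Genes that act with the members were compared in the same libraries. Among all genes tested, 17.6% were called in either direction, 10.5% higher and 7.05% lower. Of the AIM2 inflammasome list, 7 of 10 genes were tested and 1 was called, a share near that of all genes. That gene was *Pycard*, which encodes the adaptor ASC. *Pycard* was counted at 7984, 7555 and 8318 in WT and at 5151, 5839 and 5271 in UTX TCD (log2 fold change -0.55, SE 0.06, limma adjusted p 0.000141), so the adaptor of AIM2 was lower while *Aim2* itself was not. *Casp1*, the inflammasome protease, was counted at 211, 223 and 198 in WT and at 144, 156 and 296 in UTX TCD and was not called (log2 fold change -0.16, limma adjusted p 0.657). Of 8 genes of the cGAS-STING pathway, to which *Ifi204* has been linked, *Zbp1* (0.77) and *Cgas* (0.68) were called higher and *Sting1* (-0.55) lower. Among 14 interferon receptors and factors, which carry the signals that induce the members, *Irf7* (1.34) and *Stat2* (0.91) were called higher and *Ifngr1* (-0.97) and *Ifngr2* (-0.53) lower. *Irf9* (0.37, limma adjusted p 0.000662) was under the fold limit, and *Irf1* was not called (-0.04, limma adjusted p 0.427). The decreases of *Pycard*, *Sting1* and *Ifngr2* were smaller than 1.5-fold, so their calls did not hold at that limit. All 17 core interferon-stimulated genes tested were called higher, against 10.5% of all genes tested. This list was chosen with earlier results of these data known, so its count and median may partly reflect that choice. Its median log2 fold change was 1.81 against 0.61 for the members, with values up to 3.74 for *Ifi44*, 3.15 for *Mx1*, 3.08 for *Rsad2* and 2.93 for *Oas1a*. The difference between these medians was not tested.

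Several members are also expressed in myeloid and B cells, so marker genes of other cells were summed in each library. Of 14 myeloid markers, 5 were tested, 1 was called higher (*Mpeg1*) and 1 lower (*Csf1r*), and *S100a8* was at 0 in all libraries. Their summed normalized counts were 5280, 4753 and 3863 in WT and 4573, 3496 and 3743 in UTX TCD, of which *Cst3* gave 77.9%. These sums overlapped between the genotypes and were below the count of every member except *Ifi213* and *Ifi207*. Of 8 B cell markers, 6 were tested, *Ms4a1* was called higher and *Cd79b* lower, and the sums were 114613, 97144 and 106595 in WT and 96076, 90750 and 82335 in UTX TCD, of which *Ighm* gave 98.0%. These sums were lower in UTX TCD without overlap, and they were above the count of every member. They mainly reflect *Ighm*, and 4 of the 6 B cell markers tested had a log2 fold change above 0. Of 5 markers of NK and CD4+ T cells, 4 were tested, and limma called *Cd4* and *Zbtb7b* lower. Among these markers edgeR called 2 and DESeq2 called 1. Their sums were 511, 428 and 458 in WT and 387, 356 and 373 in UTX TCD, without overlap, with *Foxp3* the most abundant. Of 6 CD8+ T cell markers limma called 0, with 4 at an unadjusted p under 0.05, and edgeR and DESeq2 each called 0. Their sums were 875499, 829408 and 847571 in WT and 869077, 841632 and 776019 in UTX TCD, with *Cd8a* the most abundant. Of 5 sort and state markers, 1 was called lower (*Cxcr6*), and *Tcf7* was the most abundant. The part of other cells in the levels of the members was not tested, and summed marker counts do not give the number of such cells. In bulk RNA-seq, more cells of a kind that expresses a member and more RNA per cell cannot be told apart.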

How the data were processed

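The authors aligned RNA-seq reads to mm10 with HISAT2 2.2.1, counted them per gene and divided the counts by a size factor per library, so the deposited RNA values are a normalized signal per gene. Annotation, strand setting and the handling of reads that fit several genes were not stated. The deposited ATAC-seq values are the authors' mean log2 concentration per genotype over 3 libraries, without a spread. Both deposited tables also hold the authors' own comparison of the genotypes (log2 fold change, its SE and adjusted p-value per gene, and fold, p-value and FDR per peak). None was used, except to see that all 23932 listed peaks had an FDR under 0.05.

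The RNA test was limma 3.58.1 (R 4.3.3) with genotype as the only term, fitted to log2(normalized count + 1). It covered the 14459 genes averaging 10 or more normalized counts across the 6 libraries, with Benjamini-Hochberg adjustment. Calls required an adjusted p below 0.05 together with a log2 fold change beyond 0.5 either way. Fold changes are UTX TCD over WT on that scale. Reads were recovered from the steps of each library (100% of values whole, tolerance 0.01) and tested with edgeR 4.0.16 (2541 genes called) and DESeq2 1.42.0 (2422 genes called) as alternatives. A count of 0 allows up to 3 reads, for counting error only. The procedure was tested on simulated data.

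Members, gene lists, limits and most alternatives were fixed before the data were examined, with earlier results of these data known. Named genes were all members and other PYHIN genes, called genes within 500 kb, up to 4 called genes per pathway list with the largest change, *Pycard*, *Casp1*, *Irf1*, *Irf7* and *Irf9*, the most abundant gene per marker list, and *Kdm6a*. Called markers and *S100a8* were named after their values were seen. Gene positions, exon lengths and promoters came from RefSeq on GRCm38.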

Additional observations from a re-analysis of the deposited data

How the results depend on the processing

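Over 17 alternatives (pseudocount, filter, scaling, test, fold limit, replicate block and each library left out in turn), no member's log2 fold change reversed. The same 5 members were called in 15 of them, and the 2 exceptions added members: *Ifi203* with libraries scaled to the same sum (6 called), and *Ifi203* and *Aim2* without a limit on the fold change (7 called). Scaling to the same sum moved the median log2 fold change of all genes to 0.06. Without the fold limit 5887 genes were called instead of 2538, since that limit removes small changes. Leaving out a library gave 2164 to 2570 genes called, 5 to 5 members higher and 0 to 0 lower. Same-numbered libraries came from different mice, and their deviations correlated at 0.31, -0.20 and 0.09. The labels state no pairing, and these correlations cannot exclude one. With the replicate block 2474 genes were called, 5 members higher and 0 lower, and *Ifi207* had an adjusted p of 0.0302, within a range of 0.0302 to 0.438 over its alternatives. *Ifi205*, not a member, was called under the block (adjusted p 0.0233), as by DESeq2 and without WT replicate 3 or UTX TCD replicate 1. Not every library correlated best with its own number. Of the peaks, 15 of 16 between the outer ends of the members were higher, against 68.8% of all listed peaks. That set holds peaks annotated to *Ifi214*, *Ackr1* and *Cadm3*, and leaves out the lower peak beyond *Ifi203*. Of the peaks annotated to members, 4 higher and 2 lower differed by more than 0.5, and 5 of 7 within 10 kb of a start were higher. Those counts cover different sets of peaks. Depth was lowest among the members for *Ifi207* (259 to 548 reads per library), and shared sequence limits all members but *Aim2*. The data cover 3 libraries per genotype from female mice at an unstated age in a transgenic model.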
